A study of Homo sapiens with 3 samples.

Results

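The unfolded protein response sensor gene ERN1, its target XBP1 and 6 genes of secretory protein handling (DNAJB9, KDELR3, SEC61G, SEC62, DNAJB11 and EDEM1) were followed across hormone classes of stem cell-derived islet cells. These 8 of the 33538 genes in the count tables were found by symbol, and every one was counted in each library. The cells came from H1, a widely used line of human embryonic stem cells, which had been differentiated with pancreatic beta cells as the goal, and were read as 3 droplet single-cell RNA libraries. The KO library was PAX6-/-, the HET library PAX6+/- and the WT library wild type, with 1 library each. The series title names the IRE1α pathway and abnormal PAX6 expression. Where PAX6 was changed and how many clones each genotype had was not given in the sources used here.

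IRE1α, the ERN1 protein, is an endoplasmic reticulum sensor of unfolded protein. When active it cuts a short intron out of XBP1 mRNA in the cytoplasm, and the frame-shifted protein made from the cut mRNA is a transcription factor that raises genes of translocation, folding, degradation and vesicle transport. Beta cells, which fill their secretory pathway with proinsulin, are known for constant use of this branch.

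The intron sits in the XBP1 coding sequence, and the 2 annotated transcripts that differ by it are shown because the counts per gene sum over both. They are given 5′ to 3′ on the transcript strand, from GENCODE 29, with the 26 bases that XBP1-202 lacks in capitals.
XBP1-201 (unspliced): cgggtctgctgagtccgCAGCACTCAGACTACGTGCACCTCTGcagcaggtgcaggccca
XBP1-202 (spliced): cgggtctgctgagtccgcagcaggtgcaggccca
In XBP1-201 these are transcript bases 567 to 592, and because of repeated bases at the ends the same product results from 7 placements. Every XBP1 level below is the sum of both forms, so it measures the amount of XBP1 RNA and not its splicing.

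On GRCh38 (GENCODE 29), ERN1 lies on chromosome 17 (64039142 to 64130819, minus strand) and XBP1 on chromosome 22 (28794555 to 28800597, minus strand). DNAJB9 lies at 108569568 to 108574850 (plus strand) and SEC61G at 54752250 to 54759974 (minus strand), both on chromosome 7. KDELR3 is on chromosome 22 (38468062 to 38483447, plus strand). Chromosome 3 holds SEC62 (169966635 to 169998373), DNAJB11 (186567403 to 186585800) and EDEM1 (5187646 to 5219957), all on the plus strand. The last part of DNAJB11 is shared with AC068631.2, a protein-coding gene model on the same strand, so its counts depend on how such reads were assigned.

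Promoters of the 8 genes were read from RefSeq (GRCh38.p14, 250 bases before to 50 after the start; 9 promoters, 2 of them of XBP1) and searched on both strands for 2 elements known from the unfolded protein response. The first was CCAAT followed after 9 bases by CCACG, the endoplasmic reticulum stress response element. It was found in the promoter of XBP1 and in 27 of 35116 RefSeq promoters (0.0769%). The second was TGACGTG, the core of an element bound by XBP1 and ATF6. It was found in the promoters of KDELR3 and SEC62, on the minus strand of each gene, and in 692 of all promoters (1.97%). The 3 windows follow on the gene's own strand, with the matched element in capitals.
XBP1, chr22:28800593-28800631 (minus strand): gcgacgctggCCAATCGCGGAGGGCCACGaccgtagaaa
KDELR3, chr22:38468041-38468067 (plus strand): ccgccctggcCACGTCAccgcccggcc
SEC62, chr3:169966781-169966807 (plus strand): ctcctcgctcCACGTCAgagggaaccg
Neither element was found in the windows of the other 5 genes.

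The libraries held 145948590 UMIs (KO), 136834433 (HET) and 140068492 (WT), with medians of 14365.5, 13111 and 13571 UMIs per barcode, and any pair shared 26 to 43 barcodes. After filtering, 8082 KO, 7791 HET and 7969 WT cells were used. A cell was put in the INS, GCG, SST or GHRL class when only that hormone reached 25 per 10000 UMIs, and in the several-hormone class when 2 or more did. Cells with none of these were called CHGA-high at 5 or more CHGA (chromogranin A) per 10000 UMIs and CHGA-low under 2. Endocrine cells are all hormone classes plus CHGA-high. Despite the beta cell label, CHGA-low cells were 77.9% of KO, 85% of HET and 69.3% of WT cells. Their summed liver markers (ALB, AFP, FGB) were 5331, 4350.4 and 6062 counts per 1000000 UMIs in KO, HET and WT. Most of each sum was FGB, while ALB was at 20.2, 19.2 and 25.2. In CHGA-high cells ALB was at 11.8, 175 and 132, so it was higher there in HET and WT. Summed duct and progenitor markers of the CHGA-low cells were 1146, 1284 and 1142, and summed intestinal markers 231, 216 and 356. PAX6 RNA was 301 CPM (292 to 310.3) in KO, 246 (235 to 257) in HET and 331 (323 to 339) in WT in endocrine cells (CPM as defined below), so PAX6 counts do not check the genotype labels. By class the order differed: PAX6 was at 529 CPM (493 to 567) in KO, 296 (253 to 344) in HET and 121 (82 to 171) in WT in the GHRL class, at 183 CPM (175 to 192) in KO, 115 (105 to 126) in HET and 75.6 (70.2 to 81.4) in WT in CHGA-high cells and at 715 CPM (665 to 769) in KO, 476 (446 to 508) in HET and 719 (697 to 741) in WT in the several-hormone class.

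The classes were unequally filled. The INS class had 120 KO, 101 HET and 286 WT cells, the GHRL class 130 KO, 41 HET and 22 WT cells, the several-hormone class 79 KO, 158 HET and 489 WT cells and CHGA-high 809 KO, 344 HET and 780 WT cells. The GCG class had 7 KO, 16 HET and 110 WT cells and the SST class 7 KO, 6 HET and 27 WT cells, so these 2 are described in WT and were not tested in this form. The several-hormone class differed in makeup: 37 of its KO cells had INS with GHRL, while INS with GCG was held by 21 KO, 106 HET and 344 WT cells. The INS class also differed in beta cell markers: IAPP, the peptide stored with insulin, was 0 in KO (a count of 0 allows up to 2.08), 1.99 in HET and 342 in WT, in counts per 1000000 UMIs, and SLC30A8, the granule zinc transporter gene, was 18.7 in KO, 324 in HET and 841 in WT. Of the other beta cell markers, INS was 9210, 11400 and 12900 and PDX1 118, 191 and 298 in KO, HET and WT. NKX6-1 was nearer level (139, 149 and 173), and G6PC2 was 0, 34.5 and 22.3. TPH1, an enterochromaffin gene of serotonin synthesis, was 910.0 in KO, 271 in HET and 76.6 in WT in the INS class. The other enterochromaffin markers SLC18A1 (39.5, 7.29 and 3.71) and LMX1A (36.1, 21.9 and 10.3) had the same order. FEV, also of that list, was 434, 223 and 271. The median mitochondrial share of UMIs in endocrine cells was 8.94% in KO, 8.45% in HET and 6.34% in WT. The part of these differences in any result below was not tested.

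Levels are given as CPM, counts per 1000000 UMIs outside 8 islet hormone genes, with 95% exact Poisson intervals in parentheses. The intervals, and those of ratios between libraries, cover counting error only. With 1 library per genotype, no difference between genotypes has a replicate check or a p-value. Classes of cells were compared across the 3 libraries with edgeR's quasi-likelihood test, with library as a block and Benjamini-Hochberg adjustment over all genes tested (adjusted p threshold 0.05). The 3 libraries are the replicates in these tests, so the spread includes the differences between genotypes.

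ERN1, the sensor gene, was higher in endocrine cells than in CHGA-low cells of all 3 libraries. In cells of any hormone class it was at 16.4 CPM (12.7 to 20.7) in KO, 14.4 (11 to 18.5) in HET and 30.8 (27.6 to 34.3) in WT, and in CHGA-high cells without hormone at 18.3 CPM (15.7 to 21.3) in KO, 14 (10.6 to 18.1) in HET and 19.4 (16.7 to 22.4) in WT. In CHGA-low cells it was at 7.31 CPM (6.8 to 7.84) in KO, 7.16 (6.65 to 7.7) in HET and 9.18 (8.56 to 9.84) in WT. All 6 endocrine intervals lay above the CHGA-low interval of their library. The fitted log2 difference of hormone cells from CHGA-low cells was 1.15 (edgeR adjusted p = 0.00255; in CPM 1.16 in KO, 1.01 in HET and 1.75 in WT), and that of CHGA-high cells was 0.94 (edgeR adjusted p = 0.00171). Against CHGA-high cells the fitted log2 of ERN1 was 0.24 for the INS class, 0.52 for the GHRL class and 0.30 for the several-hormone class, with no call (edgeR adjusted p = 0.534, 0.224 and 0.492). For the GCG class, run only in alternative forms, it was 0.000397 to 0.865, so a call depended on the form. ERN1 kept both calls against CHGA-low cells under each of the alternatives run, with each library left out in turn among them.

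Between genotypes, ERN1 was lower in KO and HET than in WT, and the difference was larger in hormone-bearing cells than in CHGA-high cells without hormone. In the INS class ERN1 was at 13.3 CPM (8.02 to 20.8) in KO, 16.2 (10.4 to 24.1) in HET and 28 (22.9 to 34) in WT. In the GHRL class it was at 20.6 CPM (14.1 to 29.1) in KO, 21.2 (11 to 37.1) in HET and 42.8 (21.4 to 76.6) in WT, and in the several-hormone class at 13.6 CPM (7.43 to 22.8) in KO, 10.9 (6.77 to 16.7) in HET and 33.1 (28.5 to 38.2) in WT. WT was highest in each of the 3 classes, and its interval overlapped those of KO and HET in the GHRL class, where WT had 22 cells. In all hormone classes pooled, ERN1 was 1.88-fold lower (1.45 to 2.48) in KO than in WT and 2.14-fold lower (1.63 to 2.86) in HET than in WT. In CHGA-high cells without hormone the log2 ratio was -0.079 for KO, a fold of 0.947 (0.764 to 1.17) whose interval includes no difference, and -0.47 (-0.92 to -0.034) for HET. In CHGA-low cells it was -0.33 for KO and -0.36 for HET. The log2 ratio of KO to WT in hormone cells minus that in CHGA-high cells was -0.83 (-1.32 to -0.35, counting error only), and for HET it was -0.63 (-1.21 to -0.053). Within cells of INS with GCG, a makeup held by all 3 libraries, ERN1 was at 9.73 CPM (2.01 to 28.4) in KO, 11.5 (6.42 to 18.9) in HET and 34.8 (29.3 to 41) in WT, the KO value from 3 counts and the WT value from 140.

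XBP1, the substrate of IRE1α, passed no test between hormone cells and CHGA-low cells. It was at 183 CPM (171 to 197) in KO, 241 (226 to 256) in HET and 262 (253 to 272) in WT in hormone cells and at 183 CPM (180.2 to 185) in KO, 182 (179.9 to 185) in HET and 209.9 (207 to 213) in WT in CHGA-low cells. The hormone cells were higher in HET and WT with separate intervals, and level in KO. In CPM the log2 ratios were 0.0052 in KO, 0.40 in HET and 0.32 in WT, with a mean of 0.24, while the fitted difference on the TMM scale was 0.064 and missed the threshold (edgeR adjusted p = 0.683). CHGA-high cells without hormone were at 197 CPM (188 to 206) in KO, 224 (209.8 to 239) in HET and 257 (247 to 268) in WT. Their intervals lay above CHGA-low in each library, but the fit gave no call (edgeR adjusted p 0.469 to 0.958 over all alternatives). The INS class stood at the top of the order in each library, at 224 CPM (199.7 to 249) in KO, 279.5 (253 to 308) in HET and 282 (265 to 299) in WT, although its interval overlapped that of the next class every time. Against CHGA-high cells the INS class had a fitted log2 of 0.26 (edgeR adjusted p = 0.0728), which passed at a class threshold of 50 hormone counts (0.0431; 0.0431 to 0.478 over all alternatives). The GHRL class was low, at 171 CPM (151 to 193) in KO, 152 (122 to 188) in HET and 183 (134 to 243) in WT, and its fitted log2 difference from CHGA-high cells was -0.38 (edgeR adjusted p = 0.0443). That call was lost without any 1 of the libraries (edgeR adjusted p = 0.0867 without KO, 0.274 without HET and 0.0934 without WT). It was also lost with DESeq2 (0.223), with no library block, with the stricter cell filter and at a class threshold of 50. The same held with each cell in the class of its highest hormone, with 0.00719 to 0.274 over all alternatives. The SST class of WT had the lowest XBP1 of that library, 150.5 (114 to 195) CPM in 27 cells.

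Between genotypes XBP1 was highest in WT, in endocrine and in CHGA-low cells alike. In endocrine cells it was at 193 CPM (185 to 200.2) in KO, 232 (222 to 243) in HET and 259.9 (253 to 267) in WT, which is 1.35-fold lower (1.29 to 1.41) in KO than in WT and 1.12-fold lower (1.06 to 1.18) in HET than in WT. In the INS class the log2 ratio was -0.33 for KO and -0.011 for HET. Of the INS, GHRL, several-hormone and CHGA-high classes, the KO difference was largest in the several-hormone class, where XBP1 was at 153 CPM (130.4 to 179) in KO, 237 (216 to 259.8) in HET and 267 (254 to 281) in WT. In CHGA-low cells, where PAX6 was at 1.94 CPM in KO, 1.92 in HET and 3.94 in WT, the log2 ratio of XBP1 was -0.20 for KO and -0.20 for HET.

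**Figure D1:**
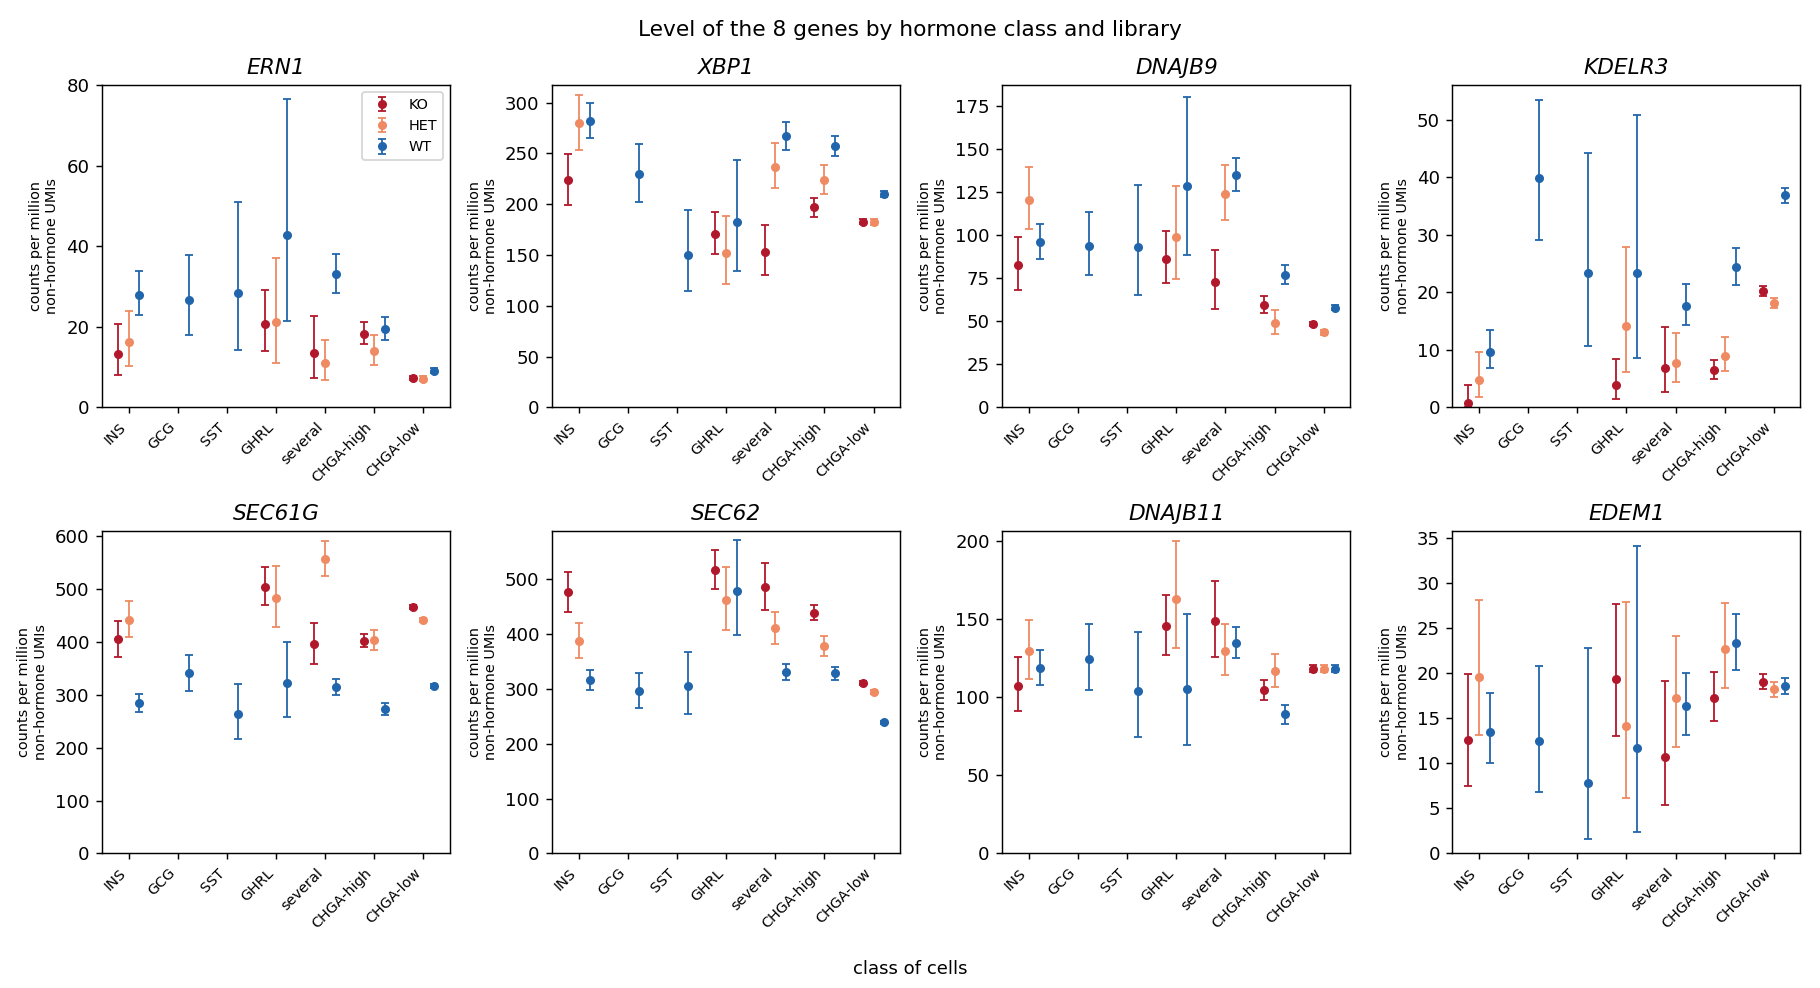
Levels of the 8 genes (counts per 1000000 UMIs outside the hormone genes) by class of cells in the KO, HET and WT libraries; points are summed counts of 1 library and bars are 95% Poisson intervals, shown for classes of at least 20 cells. The ERN1 points lay above their CHGA-low level in every endocrine class shown (intervals of the KO and HET several-hormone classes overlap that of CHGA-low). The KDELR3 points lay below their CHGA-low level in all but the GCG class of WT (intervals of the WT SST and the WT and HET GHRL classes include it). SEC61G was higher in KO and HET than in WT in every class with all 3 libraries.

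DNAJB9, an endoplasmic reticulum cochaperone of HSPA5 known as an XBP1 target, was higher in hormone-bearing cells than in CHGA-high or CHGA-low cells. It was at 81.1 CPM (72.7 to 90.3) in KO, 117 (107 to 127) in HET and 116 (110.0 to 123) in WT in hormone cells. In CHGA-high cells without hormone it was at 59.8 CPM (54.9 to 65) in KO, 49.3 (42.8 to 56.5) in HET and 77.1 (71.6 to 82.9) in WT, and in CHGA-low cells at 48.6 CPM (47.2 to 49.9) in KO, 43.6 (42.3 to 44.9) in HET and 57.9 (56.3 to 59.5) in WT. The hormone cells lay above both other groups in all 3 libraries. Its fitted log2 difference was 0.88 for hormone cells against CHGA-low (edgeR adjusted p = 0.00551), but 0.11 for CHGA-high against CHGA-low (edgeR adjusted p = 0.36). Against CHGA-high cells it was higher in the INS class (log2 0.71, edgeR adjusted p = 0.0227), the GHRL class (0.74, 0.00258) and the several-hormone class (0.92, 0.012). The GHRL call held without each library and was lost with no library block (0.0799; edgeR adjusted p 0.000798 to 0.0799 over all alternatives). The INS call was lost without HET (edgeR adjusted p = 0.105; 8.46e-07 to 0.105 over all alternatives) and the several-hormone call without WT (0.0881; 2.91e-10 to 0.0881). When each cell was put in the class of its highest hormone, the GCG class had enough cells in all 3 libraries, and DNAJB9 was higher there as well (log2 0.82, edgeR adjusted p = 0.00854; 5.32e-05 to 0.0698 over the alternatives that could be run, the highest without doublet removal). Members called higher in these GCG alternatives numbered 2 to 3, beside 7.26% to 14.5% of all genes. Other members under 0.05 in part of them were ERN1 (edgeR adjusted p 0.000397 to 0.865), SEC61G (0.00304 to 0.13) and DNAJB11 (0.0239 to 0.0816).

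DNAJB9 also rose with the hormone load, the sum of INS, GCG, SST and GHRL per 10000 UMIs. From loads under 25 through 25 to 100 and 100 to 400 to 400 or more, endocrine cells held 58.8, 76.8, 77.3 and 115 (88.7 to 146) CPM in KO. HET cells held 49, 94.3, 126 and 122 (105 to 141) CPM in the same bins, and WT cells 76, 76.8, 114 and 139 (129 to 149) CPM. The top bin lay above the lowest in all 3 libraries, and in HET the 2 upper bins did not differ beyond their intervals. Within hormone classes, cells at 400 or more held 115, 122 and 139 CPM (KO, HET, WT), against 73.9, 97.8 and 72.9 CPM at 25 to 100. This gave a fitted log2 difference of 0.72 (edgeR adjusted p = 0.0179). Of the 8 members DNAJB9 alone passed, beside 4.16% of the 11525 genes tested. The call was lost without WT (edgeR adjusted p = 0.273) and with DESeq2 (0.106), with 8.14e-05 to 0.308 over all alternatives.

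The bins differ in the hormone that leads. Of the cells at 400 or more, GHRL was the highest hormone in 40 of 51 KO cells, while GCG was in 91 of 118 HET and 353 of 432 WT cells. INS led in 87 of 145 KO, 56 of 85 HET and 134 of 216 WT cells at 25 to 100. DNAJB9 was therefore also read within cells of 1 leading hormone. In GCG-led WT cells it was at 65.6 (46.4 to 90.1, 65 cells), 110.1 (87.7 to 136, 58 cells) and 139 (128 to 151, 353 cells) CPM from the lowest of these 3 bins to the highest. In INS-led WT cells it was at 75.1 (62.7 to 89.3, 134 cells), 116 (103 to 130.5, 197 cells) and 147 (104 to 202, 21 cells) CPM. In GHRL-led KO cells it was at 65.4 (45.8 to 90.5, 46 cells), 73.8 (57 to 94.1, 73 cells) and 119 (89.6 to 156, 40 cells) CPM. All 3 sequences increased, and in the first 2 the interval at 400 or more lay above that at 25 to 100, while in the last they overlapped. HET had no leading hormone with 20 cells in all 3 bins. Its INS-led cells were at 102 (81.8 to 126, 56 cells) and 133 (110.4 to 159, 71 cells) CPM in the 2 lower bins, and its GCG-led cells at 137 (90.9 to 198, 21 cells) and 111 (92.5 to 132, 91 cells) CPM in the 2 upper ones, with overlapping intervals in both pairs. INS-led KO cells were at 79.1 (62.6 to 98.6, 87 cells) and 82.9 (64.1 to 105, 57 cells) CPM in the 2 lower bins, again with overlap.

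Cell by cell the relation was weak. Over the cells of any hormone class, Spearman's rho of hormone load with the DNAJB9 level was 0.084 in 343 KO cells, 0.068 in 322 HET cells and 0.25 in 934 WT cells. Its rho with the UMIs of a cell was 0.16, 0.14 and 0.19. These cells share a library and most hold few DNAJB9 counts (0.983, 1.54 and 1.38 per cell on average), so the values are a description only.

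**Figure D2:**
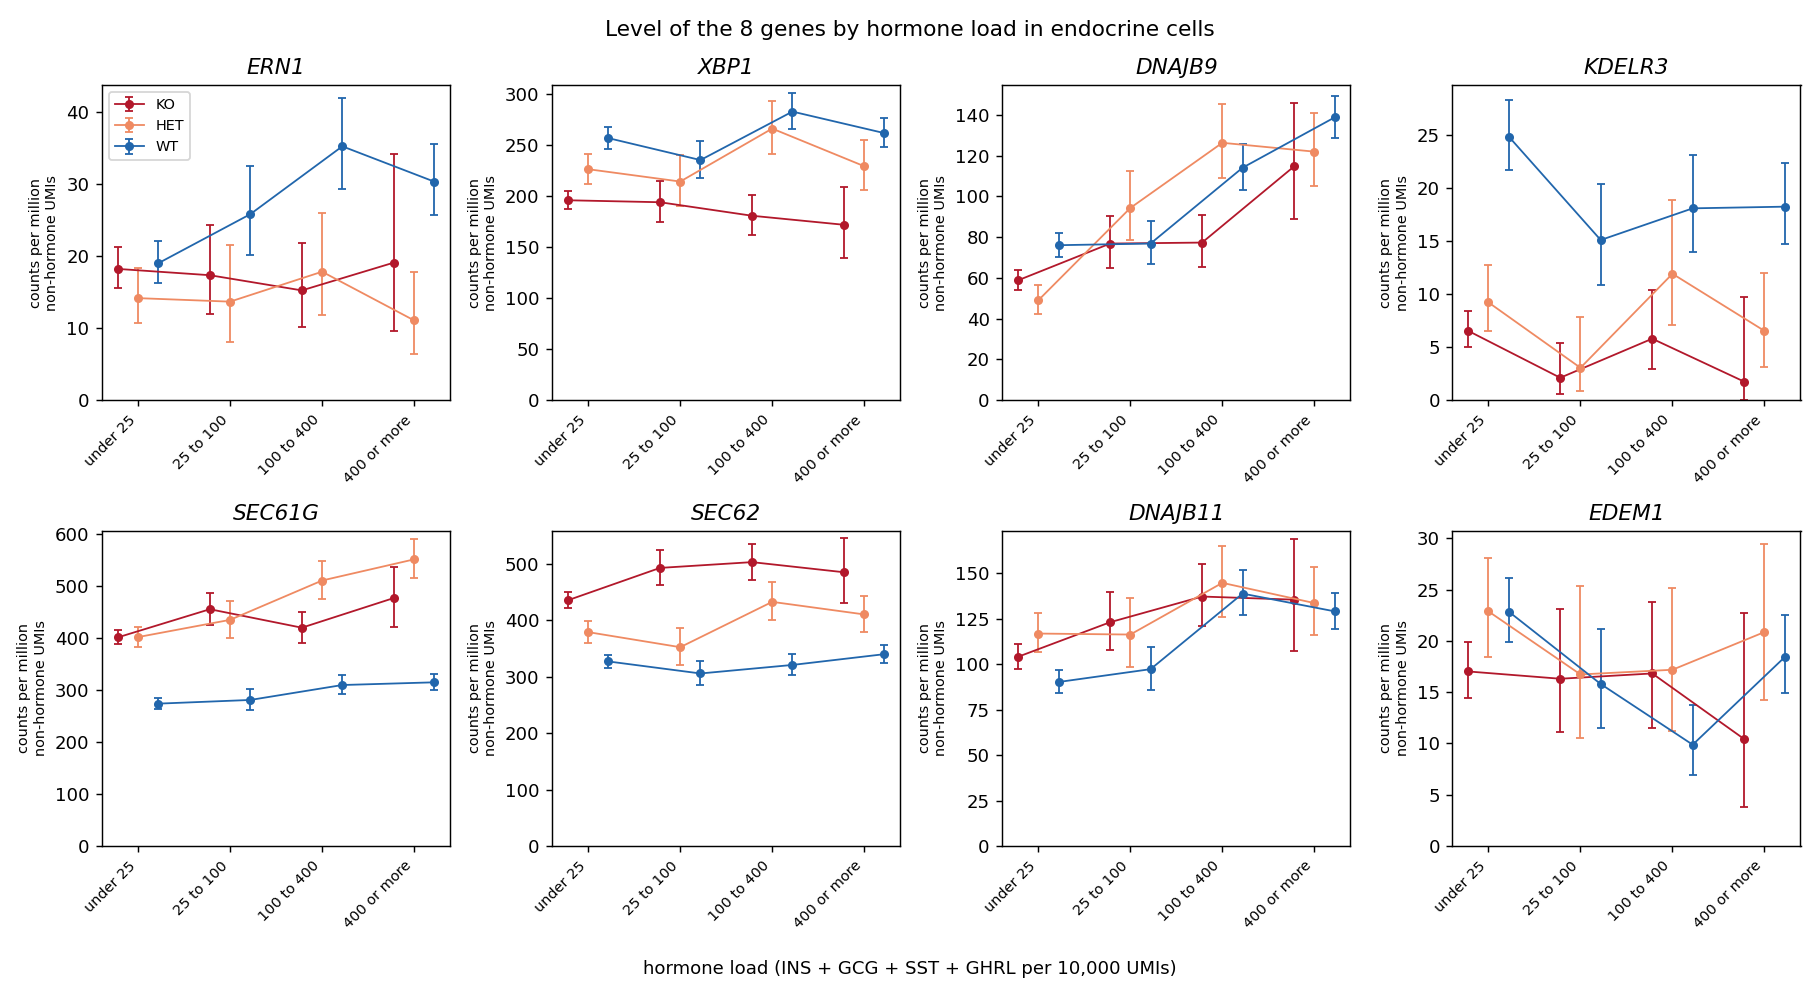
Levels of the 8 genes (counts per 1000000 UMIs outside the hormone genes, 95% Poisson intervals) in endocrine cells by hormone load, lowest bin on the left, in the KO, HET and WT libraries. DNAJB9 was at 115, 122 and 139 CPM (KO, HET and WT) at the highest load, and ERN1 in WT lay above KO and HET at loads of 25 or more.

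For ERN1 and XBP1 the comparison of loads gave no call. From the lowest bin to the highest, ERN1 was at 18.2, 17.4, 15.3 and 19.1 (9.54 to 34.2) CPM in KO and at 14.2, 13.7, 17.9 and 11.1 (6.46 to 17.8) CPM in HET. In WT it was at 19 (16.3 to 22.1) CPM under 25, at 25.9 (20.2 to 32.6) CPM at 25 to 100, at 35.3 (29.4 to 42) CPM at 100 to 400 and at 30.4 (25.8 to 35.6) CPM at 400 or more. The WT interval at 100 to 400 lay above that under 25, whereas the KO and HET intervals overlapped across bins. XBP1 was at 196, 194, 181 and 172 (139.8 to 209) CPM in KO, at 227, 214, 266 and 229.6 (206 to 255) CPM in HET and at 257, 236, 283 and 262 (248 to 276) CPM in WT. The KO values were lower at higher loads with overlapping intervals, and HET and WT were highest at 100 to 400. The log2 difference of 400 or more from 25 to 100 was 0.17 for ERN1 (edgeR adjusted p = 0.773) and 0.11 for XBP1 (0.688). At loads of 100 to 400, XBP1 was 1.56-fold lower (1.38 to 1.77) in KO than in WT and ERN1 was 2.31-fold lower (1.53 to 3.6). The leading hormone differed in this bin: GHRL led in 73 of 147 KO and 12 of 286 WT cells, and INS in 57 and 197. Its part in these ratios was not tested. At 25 to 100, XBP1 was at 194 CPM in KO and 236 CPM in WT, and ERN1 at 17.4 and 25.9 CPM. DNAJB9 was at 76.8 CPM in KO and 76.8 CPM in WT at 25 to 100, and at 77.3 and 114 CPM at 100 to 400.

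DNAJB9 was lower in KO than in WT by 1.48-fold in endocrine cells (1.37 to 1.6) and by 1.19-fold in CHGA-low cells. It was also lower in HET than in WT, by 1.18-fold in endocrine cells (1.08 to 1.29) and by 1.33-fold in CHGA-low cells. Within endocrine cells HET was uneven. Its CHGA-high cells had the lowest DNAJB9 of the 3 libraries and its hormone cells were level with WT, with log2 ratios to WT of -0.65 in CHGA-high cells and 0.0062 in hormone cells. The step between them was 0.65 (0.38 to 0.92, counting error only).

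KDELR3, a receptor that returns escaped resident proteins from the Golgi to the endoplasmic reticulum, was lower in endocrine than in CHGA-low cells, where ERN1 was higher. In hormone cells it was at 3.61 CPM (2.02 to 5.95) in KO, 7.54 (5.16 to 10.7) in HET and 17.6 (15.2 to 20.3) in WT, and in CHGA-low cells at 20.3 CPM (19.4 to 21.2) in KO, 18.2 (17.3 to 19) in HET and 36.9 (35.6 to 38.2) in WT. The hormone cells were lower in each library, with a fitted log2 difference of -1.65 (edgeR adjusted p = 0.00302; in CPM -2.49 in KO, -1.27 in HET and -1.07 in WT). CHGA-high cells were also lower than CHGA-low cells, with a fitted log2 difference of -1.25 (edgeR adjusted p = 0.00179). The INS class was lower still, at 0.701 CPM (0.0177 to 3.9) in KO, 4.72 (1.9 to 9.71) in HET and 9.7 (6.8 to 13.4) in WT, with a log2 difference of -1.33 from CHGA-high cells (edgeR adjusted p = 0.0161). The KO value rests on 1 count in 120 cells. The INS call was lost without WT (edgeR adjusted p = 0.0956), with DESeq2 (0.0775) and without doublet removal (0.066, log2 -0.63), with 1.97e-05 to 0.464 over all alternatives. In the GCG class of WT KDELR3 was at 39.9 (29.1 to 53.4) CPM, not separable from the CHGA-low level. The same held for the WT SST class at 23.3 (10.7 to 44.3) CPM and for the GHRL class of WT at 23.4 (8.57 to 50.9) CPM and of HET at 14.2 (6.11 to 27.9) CPM.

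Of the 8 members KDELR3 had the largest ratio of WT to KO and to HET in endocrine and in CHGA-low cells. In endocrine cells it was at 5.59 CPM (4.4 to 7.0) in KO, 8.23 (6.41 to 10.4) in HET and 20.7 (18.8 to 22.8) in WT, 3.71-fold lower (2.89 to 4.8) in KO than in WT and 2.52-fold lower (1.95 to 3.29) in HET than in WT. In CHGA-low cells it was 1.82-fold lower (1.72 to 1.92) in KO than in WT and 2.03-fold lower (1.92 to 2.15) in HET than in WT. WT was highest in all classes shown in the plot of levels by class. The log2 ratio of KO to WT in endocrine cells minus that in CHGA-low cells was -1.03 (-1.39 to -0.66), and for HET it was -0.31 (-0.68 to 0.068), counting error only.

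SEC61G and SEC62 belong to the translocation channel that moves new secretory proteins into the endoplasmic reticulum, SEC61G as a subunit of the channel and SEC62 as an accessory of it. Both were higher in KO and HET than in WT in endocrine and in CHGA-low cells. SEC61G was at 414 CPM (403 to 425) in KO, 453 (439 to 468) in HET and 291 (283 to 298) in WT in endocrine cells and at 467 CPM (463 to 471) in KO, 442 (438 to 446) in HET and 316 (312 to 319.7) in WT in CHGA-low cells. SEC62 was at 455 CPM (444 to 467) in KO, 390.1 (377 to 404) in HET and 326 (318 to 334) in WT in endocrine cells and at 311 CPM (307 to 314) in KO, 295 (291 to 298) in HET and 239 (235 to 242) in WT in CHGA-low cells. No interval of KO or HET overlapped that of WT in either group of cells. In the GHRL class, SEC62 was at 517 CPM (482 to 554) in KO, 462 (408 to 522) in HET and 479 (398 to 571) in WT, with all 3 intervals overlapping. In KO the log2 ratio to WT was 0.51 for SEC61G in endocrine and 0.56 in CHGA-low cells, and 0.48 and 0.38 for SEC62. The order of HET and KO differed between them, with SEC61G higher in HET and SEC62 higher in KO endocrine cells.

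Between classes, SEC62 was higher in hormone cells than in CHGA-low cells (log2 0.34, edgeR adjusted p = 0.034), and that call was lost without any 1 of the libraries (edgeR adjusted p = 0.0842 without KO, 0.0981 without HET and 0.0587 without WT; 0.020 to 0.0981 over all alternatives). The call was also lost with no filter on low counts and with no library block. It was also higher in the GHRL class than in CHGA-high cells (0.35, 0.0245), a call lost without any 1 library and with DESeq2 (0.175; 0.00942 to 0.208 over all alternatives). SEC61G was lower in CHGA-high than in CHGA-low cells (log2 -0.38, edgeR adjusted p = 0.011). That call was lost without WT (0.0918) and with no library block, with 0.00199 to 0.204 over all alternatives. For hormone cells against CHGA-low the fitted log2 of SEC61G was -0.16, while the mean of the per-library CPM ratios was 0.015, so its sign there depends on the scaling.

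DNAJB11, a folding cochaperone of HSPA5 in the endoplasmic reticulum, was at 148 CPM (126 to 174) in KO, 129.7 (114 to 147) in HET and 135 (125 to 144) in WT in the several-hormone class and at 145 CPM (127 to 165) in KO, 163 (131 to 199.8) in HET and 105 (69.3 to 153) in WT in the GHRL class. It was at 104 CPM (97.8 to 111) in KO, 116 (106 to 127) in HET and 88.9 (83 to 95.2) in WT in CHGA-high cells. In CHGA-low cells it was at 118 CPM (116 to 120.3) in KO, 118 (116 to 120.3) in HET and 118 (116 to 120.3) in WT, with overlapping intervals. The several-hormone class was above the CHGA-high cells (log2 0.51, edgeR adjusted p = 0.0175), as was the GHRL class (0.44, 0.0296). CHGA-high cells were below CHGA-low cells (log2 -0.40, edgeR adjusted p = 0.0251). Without WT the several-hormone and CHGA-high calls were lost (edgeR adjusted p = 0.14 and 0.155; 0.000657 to 0.14 and 0.00369 to 0.155 over all alternatives), and the GHRL call was lost without KO (0.287) or HET (0.213) and with DESeq2 (0.22; 0.0126 to 0.287). The GHRL call was also lost with no filter on low counts, and each of these calls was lost with no library block. The log2 ratio of KO to WT in endocrine cells was 0.047, or -0.0023 with TMM factors, so it has no set direction. The HET ratio was 0.19.

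EDEM1, a lectin that hands misfolded glycoproteins to degradation, passed no class test as run here. It was at 16.6 CPM (14.5 to 18.9) in KO, 20.5 (17.6 to 23.8) in HET and 18.6 (16.8 to 20.5) in WT in endocrine cells and at 19 CPM (18.2 to 19.9) in KO, 18.2 (17.4 to 19) in HET and 18.6 (17.7 to 19.5) in WT in CHGA-low cells. In the INS class it was at 12.6 CPM (7.48 to 19.9) in KO, 19.5 (13.1 to 28.1) in HET and 13.5 (10.0 to 17.8) in WT. The intervals of the 3 libraries overlapped in each of these groups. In CHGA-high cells without hormone, at 17.3 CPM (14.7 to 20.2) in KO, 22.7 (18.4 to 27.8) in HET and 23.3 (20.3 to 26.6) in WT, the KO interval lay below that of WT. For hormone cells against CHGA-low the log2 difference of EDEM1 was -0.41 (edgeR adjusted p = 0.0616), and it passed with no filter on low counts (0.045) and in cells of 3000 or more UMIs with at most 10% mitochondrial (0.0457), with 0.045 to 0.286 over all alternatives.

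**Figure D3:**
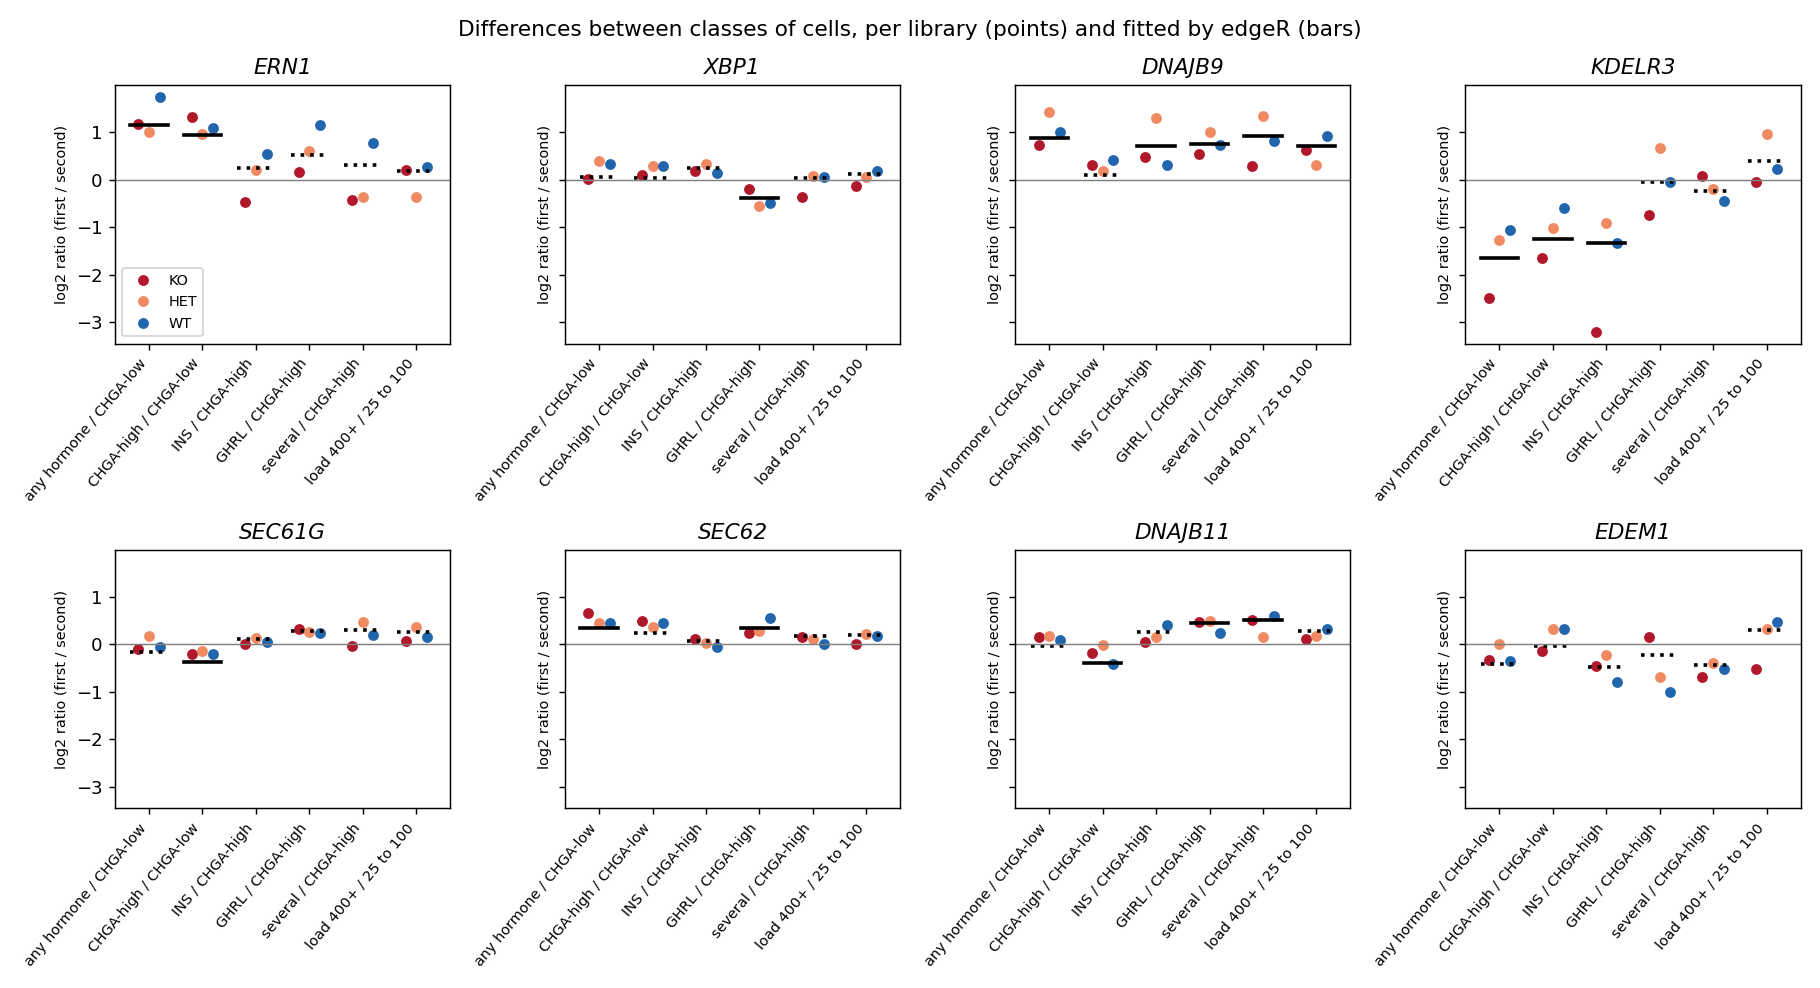
Log2 ratio between classes of cells for the 8 genes: points are the KO, HET and WT libraries on the CPM scale, and bars are the edgeR fit over the 3 libraries, solid where the adjusted p was under 0.05 and dotted otherwise. ERN1 and KDELR3 differ from CHGA-low cells in opposite directions, and DNAJB9 is above 0 in every library and comparison.

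Of the 8 members, 4 passed in the comparison of hormone cells with CHGA-low cells (3 higher, 1 lower), beside 45.2% of the 19509 genes tested. In CHGA-high against CHGA-low cells 4 passed (1 higher, 3 lower), beside 40.9%. These shares are near those of all genes. Against CHGA-high cells, 2 members passed for the INS class (15% of all genes), 4 for the GHRL class (16%) and 2 for the several-hormone class (17.5%). The fitted scale (TMM) put hormone cells lower relative to CHGA-low cells than the CPM scale did. ERN1, for example, had a mean log2 ratio of 1.31 in CPM and a fitted one of 1.15. The sign of the difference depended on it for SEC61G and DNAJB11 (0.14 against -0.036) in hormone cells and for EDEM1 (0.17 against -0.030) in CHGA-high cells.

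Between genotypes, a gene was counted as different when it was at least 1.5-fold apart with a mean of at least 10 CPM. In endocrine cells, KDELR3 was the member that reached this in KO against WT, beside 15.7% of 9640 genes. ERN1, KDELR3 and SEC61G reached it in HET against WT, beside 8.38%, and no member reached it in KO against HET, beside 7.25%. In hormone cells ERN1 (lower) and SEC62 (higher) reached it in KO against WT, beside 21.9%, and ERN1 (lower) and SEC61G (higher) in HET against WT, beside 11.1%, while KDELR3 was under the minimum level there. In CHGA-low cells KDELR3 reached it in KO against WT (10.2% of all genes) and in HET against WT (9.08%). KO and HET share the WT library as their reference, so their ratios are not independent. With the INS, GHRL, several-hormone and CHGA-high classes weighing the same, the log2 ratio of KO to WT was -0.87 for ERN1 in place of -0.53, -0.40 for XBP1 in place of -0.43, -0.51 for DNAJB9 in place of -0.57 and -2.42 for KDELR3 in place of -1.89. All 4 classes had the 4 genes lower in KO, but in some the KO and WT intervals overlapped. These were ERN1, XBP1 and DNAJB9 in the GHRL class, ERN1 in CHGA-high cells and DNAJB9 in the INS class.

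Among cells of 3000 or more UMIs with a mitochondrial share of 10% or less, the KO to WT ratios in endocrine cells were -0.56 for ERN1, -0.32 for XBP1, -0.55 for DNAJB9 and -1.83 for KDELR3. All 4 kept their direction.

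**Figure D4:**
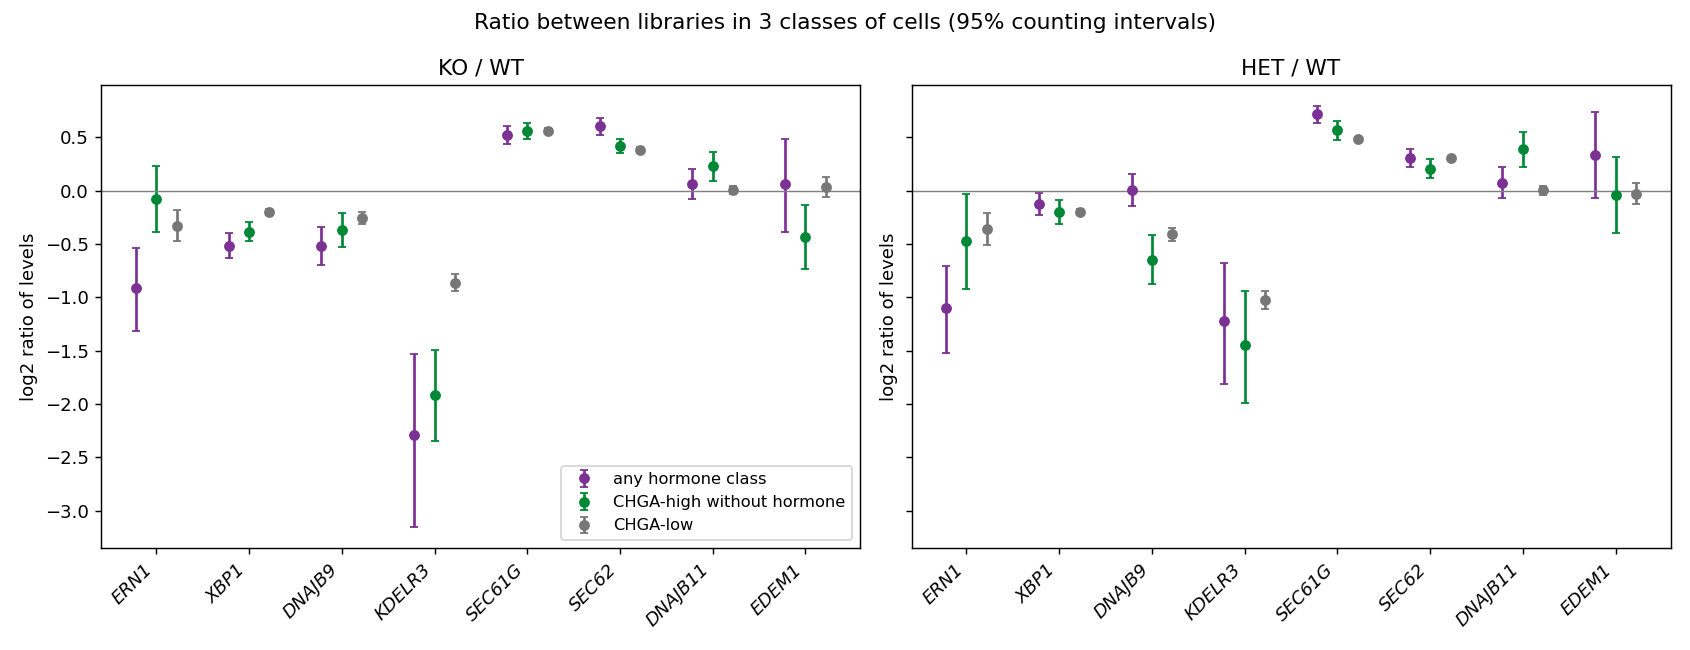
Log2 ratio of levels, KO to WT on the left and HET to WT on the right, for the 8 genes in 3 groups of cells with 95% counting intervals. The ERN1 ratio is lowest in cells of any hormone class, KDELR3 is below 0 in all 3 groups, and SEC61G and SEC62 are above 0 in all 3.

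Most other genes of the pathway were lower in KO and HET than in WT. Of 32 other genes of secretion known as XBP1 targets or their partners, 29 were lower and 3 higher in KO than in WT endocrine cells, and 10 were at least 1.5-fold lower and none 1.5-fold higher. Of all 9640 genes, 15.7% were 1.5-fold apart and 823 were 1.5-fold lower. The median log2 ratio of the 32 was -0.33, beside 0.040 for all genes. The lowest were SSR3, of the translocon-associated complex (148 CPM in KO and 275 CPM in WT, log2 -0.90), LMAN1, a cargo receptor of vesicles leaving the endoplasmic reticulum (-0.89), and OSTC, of the glycosylating complex (-0.87). The highest were SEC23B, a coat protein of those vesicles (0.19), the signal recognition receptor gene SRPRA (0.030) and the channel accessory SEC63 (0.0014). In CHGA-low cells 23 of the 32 were lower in KO, 4 by at least 1.5-fold, with a median of -0.16 beside 0.088, where 10.2% of all genes were 1.5-fold apart. In HET against WT endocrine cells 29 were lower, 2 by at least 1.5-fold, with a median of -0.21 beside -0.0061. There 8.38% of all genes were 1.5-fold apart, 485 of 9640 lower, a share near that of the 32.

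Between classes of cells the 32 genes went both ways. In hormone cells against CHGA-low cells 11 rose and 7 fell, with a median log2 of 0.0010 beside -0.057 for all genes, of which 45.2% were called. Without HET 6 rose and 6 fell, and with no library block 9 rose and 3 fell. EDEM3, another gene of glycoprotein degradation, rose by a log2 of 1.21 (edgeR adjusted p = 0.000592), SSR4 of the translocon-associated complex by 1.13 (0.000572) and the signal recognition particle gene SRP9 by 0.64 (0.00344). HERPUD1 (log2 -1.36, edgeR adjusted p = 0.00207) and SEL1L (-0.79, 0.00161), both of the degradation machinery, and SSR3 (-0.71, 0.00867) fell. In CHGA-high against CHGA-low cells 4 rose and 15 fell, with a median log2 of -0.27 beside -0.025 for all genes, of which 40.9% were called. Here 2 rose and 5 fell without WT, and 3 rose and 3 fell with no library block. Against CHGA-high cells, 7 rose in the INS class, 7 in the GHRL class and 11 in the several-hormone class, and 2, 2 and 1 fell, beside 15%, 16% and 17.5% of all genes called in these classes. Of all genes tested, 877 of 13766, 923 of 13229 and 1096 of 14411 rose. With no library block 1, 3 and 3 of the 32 rose and none fell. In the INS class 1 rose and 1 fell without HET, and in the several-hormone class 2 rose and 1 fell without WT. With load, 3 of the 32 rose and none fell at 400 or more against 25 to 100, beside 4.16% of the 11525 genes tested. DNAJC3, a cochaperone gene, rose by 0.77 (edgeR adjusted p = 0.0122) and SSR4 by 0.62 (0.00628). None of the 32 was called without HET, without WT or with no library block, and 1 was called with DESeq2.

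The 8 members did not vary as a block over the 17 sums of a class in a library with at least 20 cells. On the log2(CPM + 1) scale the highest Pearson r among their pairs was 0.71, for ERN1 with DNAJB9, and the lowest -0.69, for KDELR3 with SEC62. ERN1 with XBP1 had an r of 0.098. Among 3443 genes with a mean of at least 50 CPM, the patterns most like that of ERN1 were those of YPEL3 (r = 0.93), VAMP2 (0.92), TXNIP (0.91), EIF1B (0.90) and STMP1 (0.89). Those most like XBP1 were PRDX3 (0.86), TMED5 (0.76), SLC30A8 (0.76), CALB2 (0.76) and PDCD4 (0.75). The 17 sums share 3 libraries and are not independent, so these values describe the pattern only.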

How the data were processed

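Per the labels' protocols, cells were loaded on a 10x Genomics Chromium and the libraries sequenced on a NovaSeq. The deposited values were UMI counts per gene and barcode with no normalization, and their file headers name Cell Ranger 6.1.2. GRCh38 and Seurat stand in the submitters' processing notes. Which end the kit read, the annotation release and any barcode filter were not given in the sources used here.

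Cells needed at least 1000 UMIs, 500 genes and at most 20% mitochondrial UMIs. Scrublet (scanpy 1.11.5) called 0 doublets at its automatic threshold in all 3 libraries, so it did not work there and the top 8% of scores were removed per library. That took 12.3% of KO, 16% of HET and 14.8% of WT endocrine cells. Free RNA was not subtracted. Classes came from INS, GCG, SST, GHRL and CHGA alone. Counts were summed per library and class; CPM leaves out INS, IAPP, GCG, PPY, PYY, SST, GHRL and GAST. Class sums with at least 20 cells were tested with edgeR 4.0.16 (R 4.3.3; TMM, filterByExpr, library as block), checked on simulated data, with DESeq2 1.42.0 as an alternative. Alternatives were other handling of doublets, class and CHGA thresholds, a stricter cell filter, TMM factors, no minimum level, no filter on low counts, no library block and each library left out.

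The members and gene lists were chosen with earlier results of these data known. Named genes are the 8 members, PAX6, CHGA and the 4 hormones, the 3 highest and 3 lowest of the 32 pathway genes per comparison, and the 5 genes most like ERN1 or XBP1. Marker genes are named from the marker lists.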

Additional observations from a re-analysis of the deposited data

Results flagged for a closer look

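For 3 members the KO library differed from HET in opposite directions in endocrine and in CHGA-low cells, with both counting intervals off 0. DNAJB9 had a log2 ratio of KO to HET of -0.33 in endocrine and 0.16 in CHGA-low cells, a step of -0.49. KDELR3 had -0.56 and 0.16, a step of -0.72. SEC61G had -0.13 and 0.077, a step of -0.21. With 1 library per genotype the difference between the 2 kinds of cells was not tested.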

How the results depend on the processing

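Single libraries limit every genotype comparison, and the KO and HET hormone classes hold few cells, so ratios of ERN1, KDELR3 and EDEM1 there rest on few counts. No paired analysis of genotypes was possible because each genotype had 1 library with no replicate number. The GCG and SST class comparisons had fewer than 2 libraries with 20 cells as planned and are not given as tests of those classes. Class counts below rest on edgeR unless DESeq2 is named. Without doublet removal, which is also what the automatic threshold gave, the KO to WT log2 ratio of EDEM1 in the GHRL class was -0.20, in place of 0.73 from 3 WT counts. The cause was not tested for it or for the following. With no minimum level, genes at least 1.5-fold apart numbered 11289 in endocrine and 11055 in CHGA-low cells for KO against WT, 9709 and 11054 for HET against WT, and 9246 and 8508 for KO against HET. At 2-fold the counts were 434 and 206, 161 and 162, and 194 and 104, by the rule itself. The median log2 of the 8 members in CHGA-low cells was -0.21 for KO and -0.24 for HET against WT with TMM factors, in place of -0.099 and -0.12. Genes called for the INS, GHRL and several-hormone classes and for load numbered 2062, 2113, 2516 and 480. They were 1104, 1095, 1582 and 227 with DESeq2, and 518, 1018, 992 and 6 with no library block. Leaving out 1 library gave 1066 to 2715, 839 to 1973, 889 to 2945 and 112 to 860, and for hormone and CHGA-high cells against CHGA-low 6011 to 7789 and 5659 to 6454 in place of 8817 and 8051. Load gave 1070 with no filter on low counts and 767 without doublet removal. With no library block, no member was called for the INS, GHRL or several-hormone class or for load, and KDELR3 was not called against CHGA-low cells (edgeR adjusted p = 0.0671 in hormone and 0.148 in CHGA-high cells; 8.33e-07 to 0.0671 and 6.94e-07 to 0.148 over all alternatives). The calls against CHGA-low cells of SEC62 in hormone cells and of SEC61G and DNAJB11 in CHGA-high cells were lost as well. ERN1 kept both of its calls there and DNAJB9 its call in hormone cells.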

Other observations

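Some of the 32 other pathway genes moved between classes of endocrine cells. HERPUD1, a stress-induced gene of endoplasmic reticulum degradation, fell in all 3 classes tested against CHGA-high cells, by a log2 of 0.98 in the INS class (edgeR adjusted p = 0.000567), 0.87 in the GHRL class (3.72e-05) and 0.79 in the several-hormone class (0.00159). With no library block none of the 32, HERPUD1 among them, was called lower in these classes. SSR4 rose in the INS class (log2 0.84, edgeR adjusted p = 0.000728) and the several-hormone class (1.29, 0.000202). SDF2L1, a chaperone partner, rose in both as well (log2 0.50, edgeR adjusted p = 0.00853 in the INS class and 0.91, 0.000646 in the several-hormone class). In the GHRL class the leading rises were SEC61A1, the pore of the translocation channel (log2 0.93, edgeR adjusted p = 6.23e-05), the vesicle coat regulator ARFGAP3 (0.85, 0.000403) and PREB (0.80, 0.0235).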
